A study of Mus musculus with 4 samples.

Results

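The genes described here are 35 genes of the ATF4 amino acid response and of tRNA charging, chosen by name: enzymes, transporters and stress factors that ATF4 is known to regulate, and 12 cytosolic tRNA synthetases. The list was drawn up with earlier results of these data known. All 35 were measured, among 18193 named genes, each by its brightest probe set (highest mean over the arrays). The series holds 4 one-colour expression arrays of K7M2, a metastatic osteosarcoma line of mouse origin. The control was K7M2 over-expressing GFP (1 array), and the compared cells over-expressed ezrinT567A-GFP (3 arrays, replicates 1 to 3). All cells were grown in DMEM with serum. Ezrin links membrane proteins to cortical actin, and in T567A its regulatory C-terminal threonine is an alanine that cannot be phosphorylated. The labels name no promoter, vector or clone, and do not say whether the replicates were separate cultures, so the p-values cover the array-to-array spread alone, which may be technical. The design text calls the control wild-type, while the sample's own label gives GFP.

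ATF4 is a transcription factor whose own mRNA is translated more efficiently when the initiation factor eIF2 is phosphorylated, as happens when amino acids run short (kinase GCN2, gene Eif2ak4) or when the endoplasmic reticulum is stressed (kinase PERK, gene Eif2ak3). With partners of the C/EBP family it activates genes that make, import and charge amino acids, and genes such as Ddit3 (CHOP) and Trib3 that act when stress persists. Because ATF4 is controlled largely at translation, its mRNA level alone says little about its activity. tRNA synthetases attach each amino acid to its tRNA, and the cytosolic enzymes are mostly encoded apart from the mitochondrial ones.

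ATF4 and its C/EBP partners bind a composite element whose core is commonly written TGATGNAA, so the promoters of these genes were searched for it on both strands. RefSeq windows (build GRCm38.p6) from 250 bases before to 50 bases after each annotated start were searched for 27 of the 35 genes. The core occurred in 10 of them, 37.0%, against 4.51% of all genes with such a window and 3.97% of all windows. By role it was found in 4 of 7 cytosolic tRNA synthetases, 4 of 9 stress factors, 1 of 3 transporters, 1 of 3 other amino acid enzymes and 0 of 5 serine and one-carbon enzymes. These are matches of letters, not shown binding sites, and windows without a match say only that these letters are not there. The 11 sites are shown because they are the matches found, in 10 genes, while the windows of the other 17 held none. Each is printed as 30 bases, turned so that the core, in capitals, reads in the same direction.
Asns (chr6:7693214-7693243, - strand): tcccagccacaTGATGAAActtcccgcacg
Slc7a11, farther site (chr3:50443661-50443690, - strand): tctcatgtggcTGATGCAAacctggagaat
Slc7a11, nearer site (chr3:50443642-50443671, + strand): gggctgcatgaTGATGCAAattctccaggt
Atf3 (chr1:191183425-191183454, + strand): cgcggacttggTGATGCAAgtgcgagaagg
Trib3 (chr2:152344028-152344057, + strand): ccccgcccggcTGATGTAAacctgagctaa
Chac1 (chr2:119351038-119351067, - strand): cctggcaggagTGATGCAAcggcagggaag
Nupr1 (chr7:126625562-126625591, + strand): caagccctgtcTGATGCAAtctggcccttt
Gars (chr6:55037960-55037989, - strand): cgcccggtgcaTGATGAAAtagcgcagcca
Iars (chr13:49682126-49682155, - strand): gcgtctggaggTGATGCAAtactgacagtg
Tars (chr15:11399655-11399684, + strand): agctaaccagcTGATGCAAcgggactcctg
Yars (chr4:129189895-129189924, + strand): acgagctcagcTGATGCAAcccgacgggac

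In 8 of the 11 sites the core read TGATGCAA, in 2 TGATGAAA and in 1 TGATGTAA. Asns, the asparagine synthetase gene, had TGATGAAA, starting 23 bases upstream of the annotated start. The core began 110 bases upstream in Atf3 and Nupr1, 193 in Chac1, 30 in Gars and 15 in Tars. The sites of Trib3, Iars and Yars lay within the first bases of the transcript. Of these 10 genes, Slc7a11 was the one with 2 matches in its window. The 250 bases upstream of its start are printed whole, in the direction of the gene, with the core in capitals on either strand. In Slc7a11 the 2 cores face each other, starting 66 and 47 bases upstream.
Slc7a11 (chr3:50443614-50443863, - strand): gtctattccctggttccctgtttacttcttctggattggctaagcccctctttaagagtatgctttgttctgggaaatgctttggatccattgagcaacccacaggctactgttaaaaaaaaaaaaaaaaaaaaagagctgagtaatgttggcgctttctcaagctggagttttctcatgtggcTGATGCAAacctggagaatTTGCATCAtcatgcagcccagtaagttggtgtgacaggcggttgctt

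Values are log2 expression per probe set, and a difference is ezrinT567A-GFP minus GFP on that scale, so 1 is 2-fold. Array medians lay between 3.85 and 3.89, and all but 3 of the 35 genes (Slc7a11, Slc7a3 and Atf3) lay above the median level of all genes, 5.04. The number of arrays limits the precision. The single GFP array is assumed to vary like the others, and whatever is peculiar to it enters every difference. An exact permutation of the 4 arrays cannot go below p = 0.25. Control probe sets differed between arrays: hybridization spike-ins averaged 9.32 in GFP and 10.1 to 11.1 in ezrinT567A-GFP, and 18S rRNA was 9.09 in GFP, 11.3 in replicate 2 and 7.65 and 7.76 in replicates 1 and 3. In such bulk RNA, fewer cells of a type and less RNA per cell cannot be told apart.

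The identity of the cells was checked on marker lists. Of 10 osteoblast markers 6 were measured: the collagen genes Col1a1 and Col1a2 lay between 11.2 and 12.5, while Alpl (alkaline phosphatase) and Ibsp (bone sialoprotein) lay between 2.74 and 4.02 on all arrays. Epithelial and keratinocyte markers differed between the groups. Of 12, 10 were below GFP on all 3 ezrinT567A-GFP arrays (25.6% of all genes), and 5 were at least 2-fold lower by their mean (0.704% of all genes), and their log2 levels summed to 54.8 in GFP and to 40.0 to 43.4 in ezrinT567A-GFP. Their part in the differences below was not tested. Of 8 leukocyte markers 7 lay between 2.10 and 4.72, with Ptprc (CD45) between 2.10 and 2.22, whereas Csf1r, the receptor for macrophage colony-stimulating factor, lay between 11.9 and 12.2. The 5 endothelial markers lay between 2.01 and 4.29. The leukocyte sums ran from 35.5 to 36.7 over the arrays (35.7 in GFP) and the endothelial sums from 13.9 to 14.8 (14.6 in GFP).

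Most of the 35 genes were higher in ezrinT567A-GFP, and in nearly all of them replicate 1 was the highest array. The genes were listed with earlier results of these data known, so the shares of all genes beside the counts describe and do not test. The mean difference was above 0 in 32 of 35 genes, against 56.1% of all genes. All 3 ezrinT567A-GFP arrays lay above GFP in 24 genes, against 32.5% of all genes and 37.0% of genes at or above the median level. They lay below GFP in 1 gene, Slc7a1, against 25.6% of all genes. The median difference was 0.37, against 0.03 over all genes, and the differences ran from -0.86 to 1.18. With limma 0 of the 35 genes passed the test adjusted over all genes (0.0% of all genes passed). Unadjusted p-values under 0.05 were found for 9 higher and 0 lower genes, against 7.46% and 6.5% of all genes and 11.3% and 8.77% of genes at or above the median level. The number of higher genes was 10 without replicate 1 (7.43% of all genes), 3 without replicate 2 (6.51%, near the share of the 35 genes) and 8 without replicate 3 (4.14%). The plot of each array's difference from GFP shows the 35 genes side by side.

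**Figure D1:**
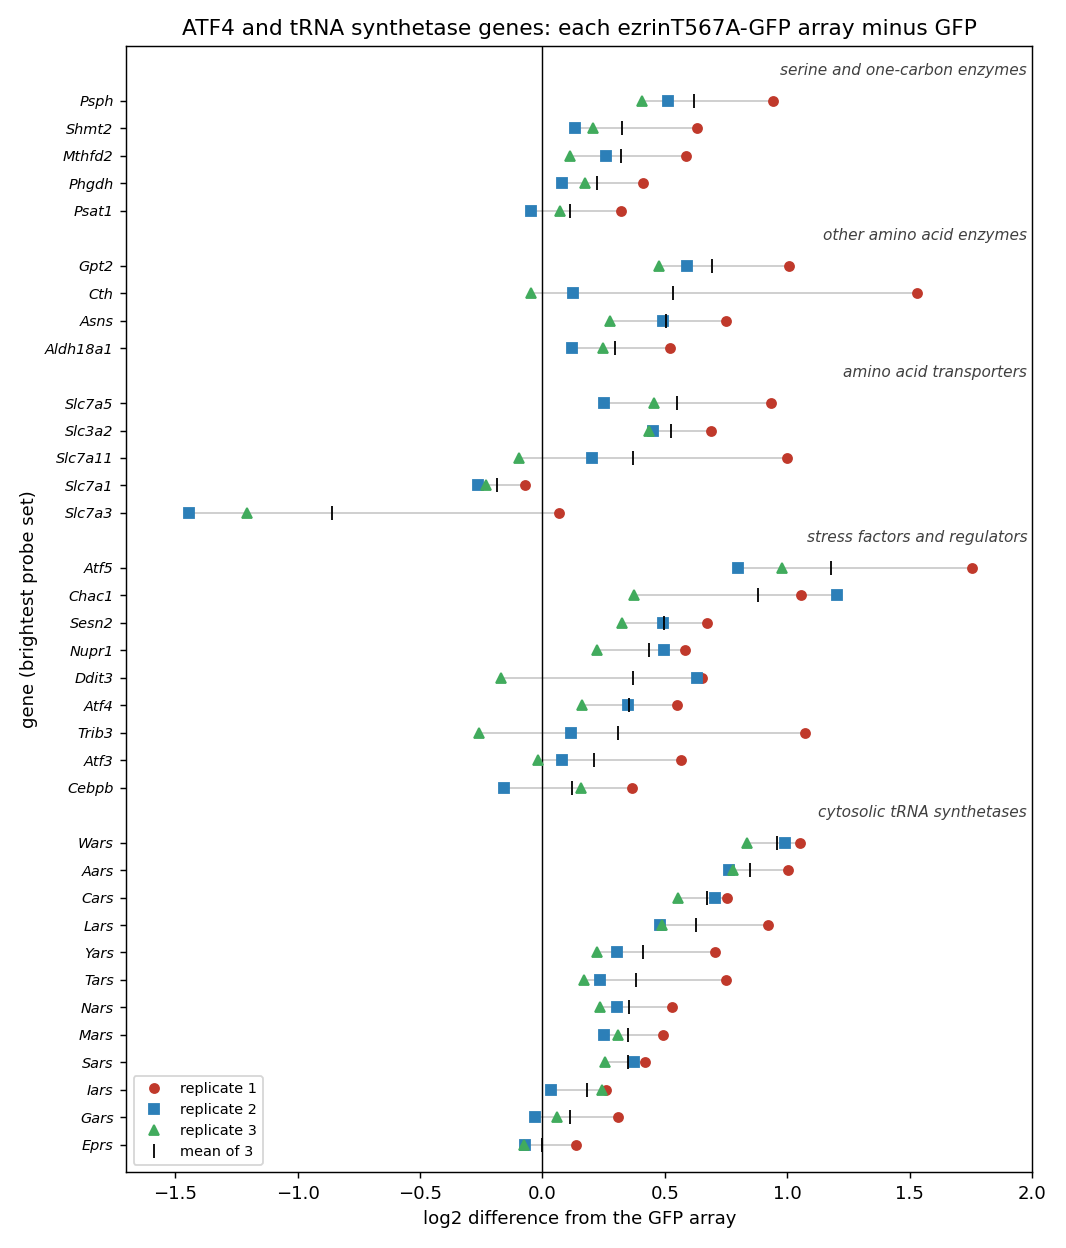
Each row is 1 gene and each symbol the log2 difference of 1 ezrinT567A-GFP array from the GFP array (circle replicate 1, square replicate 2, triangle replicate 3), with the mean of the 3 as a vertical tick. Replicate 1 lies furthest to the right in 34 of the 35 rows, the exception being Chac1.

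Cytosolic tRNA synthetases had the smallest spread of array medians among the 5 roles (0.39 ± 0.20, SD, n = 3). Of the 12, 10 lay above GFP on all 3 arrays (32.5% of all genes, 37.0% of genes at or above the median level). An unadjusted p under 0.05 with limma was found for 5, all higher (7.46% and 11.3%), and the median difference was 0.37. Wars, which charges tryptophan and is also known to be induced by interferon gamma, was 7.82 in GFP and 8.87, 8.81 and 8.65 in replicates 1, 2 and 3. Its 3 ezrinT567A-GFP arrays lay close together and apart from GFP. The difference was 0.96 (SE 0.13, adjusted p = 0.187 with limma). Its 4 probe sets gave 0.80 to 1.14. Aars, for alanine, was 9.74 in GFP and 10.74, 10.50 and 10.52. That is a difference of 0.85 (SE 0.13, adjusted p = 0.209), and its second probe set gave 0.80. Cars, for cysteine, was 8.33 in GFP and 9.09, 9.04 and 8.88, a difference of 0.67 (SE 0.13, adjusted p = 0.231), although its dimmer probe set gave 0.17. Sars, for serine, was 10.40 in GFP and 10.82, 10.78 and 10.66, a smaller difference of 0.35 (SE 0.10, adjusted p = 0.299). For each of these 4 genes the gap between GFP and the nearest ezrinT567A-GFP array exceeded the SD of the 3 arrays, as it did for Lars, Mars and Nars. The 4 were chosen by their small p from the same values, so this gap adds no support.

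The other synthetases ranged from 0.63 down to GFP's own level. Lars, for leucine, was higher by 0.63 (SE 0.22), Yars, for tyrosine, by 0.41 (SE 0.23), Tars, for threonine, by 0.38 (SE 0.26), Nars, for asparagine, by 0.36 (SE 0.14), and Mars, for methionine, by 0.35 (SE 0.13). Each of these 5 was above GFP on every ezrinT567A-GFP array, although Yars and Tars differed by less than 2 SE. Iars, for isoleucine, at 0.18 (SE 0.13), Gars, for glycine, at 0.11 (SE 0.16), and Eprs, which charges glutamate and proline, at -0.0033 (SE 0.13) also differed by less than 2 SE. Gars and Eprs had arrays on both sides of GFP, and the 3 further Eprs probe sets were at or below GFP, down to -0.35. Gars and Iars hold the promoter core printed above, as do Tars and Yars with larger differences. Over the 10 genes of the whole set with the core the median difference was 0.38, and over the 17 with a searched window and no core it was 0.35. Over all 467 measured genes with the core it was 0.04, against 0.03 for those without.

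Enzymes of serine and one-carbon metabolism had a median difference of 0.32, which was 0.17 with the mean of each gene's probe sets and 0.46 with _at probe sets alone. All 5 had a mean above GFP and 4 lay above it on every array (56.1% and 32.5% of all genes). An unadjusted p under 0.05 with limma was reached by 0 (7.46% of all genes higher and 6.5% lower). Psph, the phosphatase that releases serine, was 9.00 in GFP and 9.94, 9.51 and 9.41 in replicates 1, 2 and 3, a difference of 0.62 (SE 0.24, adjusted p = 0.378). It was the member of this group that stood furthest from GFP. The upstream dehydrogenase Phgdh was 10.42 in GFP and 10.83, 10.50 and 10.59, a difference of 0.22 (SE 0.16), and its 4 probe sets ran from -0.19 to 0.22. Psat1, the transaminase between them, was higher by 0.11 (SE 0.17), with replicate 2 below GFP and a second probe set at -0.07. Shmt2, which passes the serine carbon to folate in mitochondria, was 10.08 in GFP and 10.71, 10.21 and 10.28, a difference of 0.32 (SE 0.23). Its 3 further probe sets gave 0.27 to 0.50, with replicates 2 and 3 above GFP in each. Mthfd2, the next mitochondrial folate enzyme, was 9.47 in GFP and 10.05, 9.73 and 9.58, likewise a difference of 0.32 (SE 0.21). Its second probe set gave 0.03. In both genes replicate 1 was the highest array on the brightest probe set.

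The other amino acid enzymes gave a median of 0.52 over 4 genes. Gpt2, the mitochondrial alanine transaminase, was 7.83 in GFP and 8.83, 8.42 and 8.30, a difference of 0.69 (SE 0.24, adjusted p = 0.342). All 4 of its probe sets were above GFP, from 0.30 to 0.69. Asns, which makes asparagine, was 10.39 in GFP and 11.14, 10.88 and 10.66, a difference of 0.51 (SE 0.20, adjusted p = 0.386). Aldh18a1, the first enzyme of proline synthesis, was 9.79 in GFP and 10.31, 9.91 and 10.03, a difference of 0.30 (SE 0.18), with 5 probe sets between 0.01 and 0.60. Cth, which makes cysteine from cystathionine, was 7.38 in GFP, 8.91 in replicate 1, and 7.51 and 7.34 in replicates 2 and 3. Replicate 1 alone carried its difference of 0.54 (SE 0.69, adjusted p = 0.797), and replicates 2 and 3 lay on either side of GFP.

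Amino acid transporters were the most divided group, with 3 of 5 means above GFP, near the share of all genes (56.1%). Slc3a2, the heavy chain shared by several exchangers, was 9.83 in GFP and 10.52, 10.28 and 10.26, a difference of 0.53 (SE 0.14, adjusted p = 0.282). Slc7a5 (LAT1), its partner for large neutral amino acids, was 9.15 in GFP and 10.09, 9.41 and 9.61, a difference of 0.55 (SE 0.29, adjusted p = 0.49). Both subunits of this exchanger lay above GFP on every array. Slc7a11 (xCT), the cystine importer that also pairs with Slc3a2, was dim, at 4.06 in GFP and 5.07, 4.27 and 3.97. Its difference was 0.37 (SE 0.46), with replicate 1 alone far above GFP. Its second, dimmer probe set gave another pattern, with replicates 1, 2 and 3 above GFP by 0.47, 0.62 and 0.33. The cationic amino acid transporters ran the other way. Slc7a1 was 9.33 in GFP and 9.26, 9.07 and 9.10, a difference of -0.19 (SE 0.12), with further probe sets up to 0.06. Slc7a3 was 4.76 in GFP, 4.82 in replicate 1, and 3.31 and 3.55 in replicates 2 and 3, a difference of -0.86 (SE 0.65). For this gene replicate 1 matched GFP while replicates 2 and 3 lay more than 2-fold lower, at levels below the median of all genes.

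Stress factors and regulators had all 9 means above GFP, 5 of them on every array (56.1% and 32.5% of all genes). Atf5, a transcription factor translated under the same control as Atf4, had the largest difference of the 35 genes. It was 7.13 in GFP and 8.89, 7.93 and 8.11, a difference of 1.18 or 2.26-fold (SE 0.42, adjusted p = 0.345). Chac1, which degrades glutathione, was 8.43 in GFP and 9.49, 9.63 and 8.80, a difference of 0.88 (SE 0.36, adjusted p = 0.392). It was the gene in which replicate 2, not replicate 1, was highest. Sesn2, a sestrin that restrains mTORC1 when leucine is low, was 6.75 in GFP and 7.42, 7.24 and 7.08, a difference of 0.50 (SE 0.18, adjusted p = 0.346). Nupr1, a stress-induced chromatin protein, was 9.03 in GFP and 9.61, 9.53 and 9.26, a difference of 0.43 (SE 0.17, adjusted p = 0.386).

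Atf4 itself was 10.75 in GFP and 11.30, 11.10 and 10.91, a difference of 0.35 (SE 0.17, adjusted p = 0.452). Its 3 probe sets disagreed, from -0.61 for a dim one to 0.49, and their mean gave 0.08. Ddit3 (CHOP) was 7.58 in GFP and 8.23, 8.21 and 7.41, so that replicates 1 and 2 lay above GFP and replicate 3 below it. A second, dimmer Ddit3 probe set gave another pattern, with replicates 1, 2 and 3 at 0.25, -0.13 and 0.19 from GFP. Trib3, a pseudokinase that restrains ATF4 and CHOP, was 7.50 in GFP, 8.57 in replicate 1, and 7.62 and 7.24 in replicates 2 and 3. Its second probe set gave the same pattern, with a mean difference of 0.33 beside 0.31. Atf3, a further ATF/CREB factor, was dim and higher by 0.21 (SE 0.27), and Cebpb, a C/EBP partner, was higher by 0.12 (SE 0.23). Both had arrays on both sides of GFP.

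**Figure D2:**
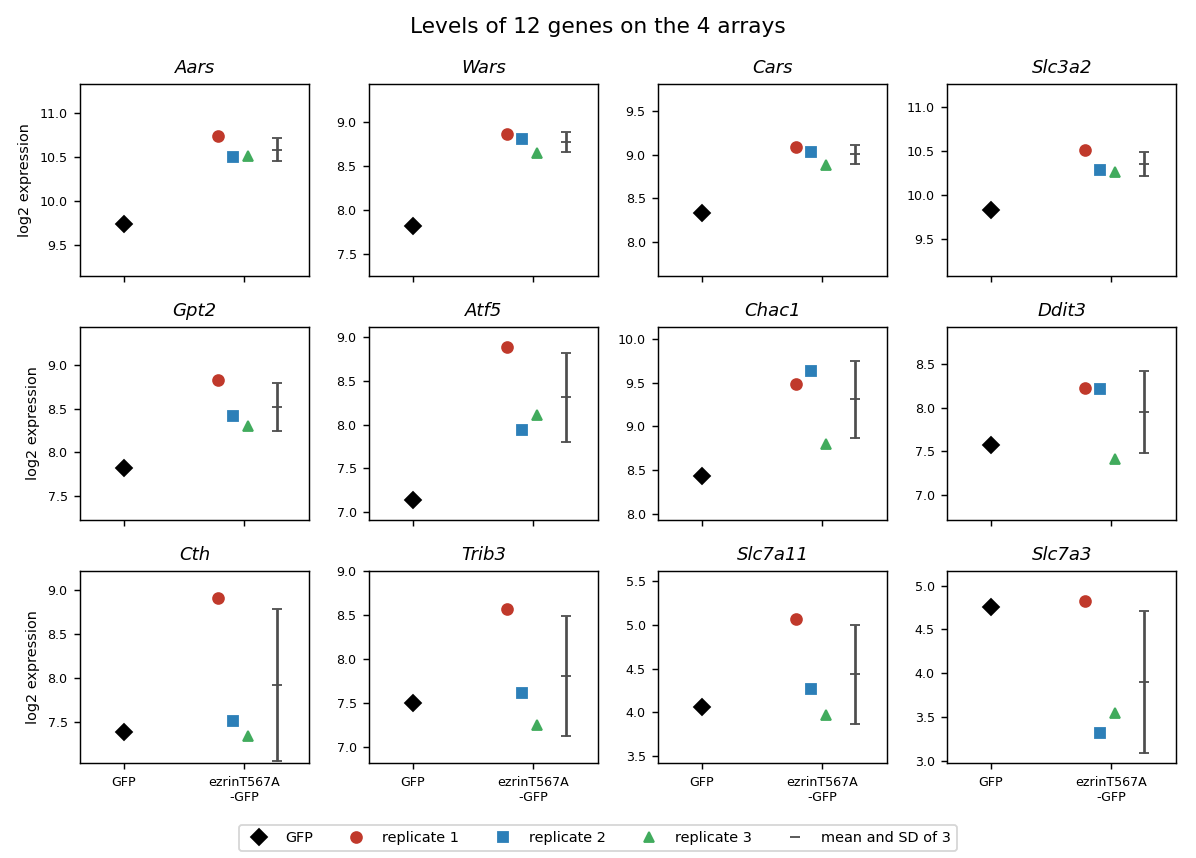
Log2 expression of 12 genes on the 4 arrays, with GFP as a diamond, the 3 ezrinT567A-GFP replicates as coloured symbols and their mean ± SD (n = 3) as a bar; every panel spans the same height on the log2 axis. Aars, Wars, Cars and Slc3a2 show 3 arrays grouped above GFP, and Cth, Trib3, Slc7a11 and Slc7a3 show replicate 1 apart from replicates 2 and 3.

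Setting replicate 1 apart separated the 35 genes further. Replicate 1 was the highest ezrinT567A-GFP array in 34 of 35 genes, against 34.6% of all genes and 38.2% of genes at or above the median level. It was at least 0.25 above the mean of replicates 2 and 3 in 25 genes, against 12.3% of all genes. It was at least 2-fold above GFP in 8 genes, replicate 2 in 1 (Chac1) and replicate 3 in 0, against 1.22%, 1.31% and 1.14% of all genes. Among 37 further probe sets of these genes, replicate 1 was the highest in 31. Replicates 1 to 3 belong to 1 group, so this is a description without a test. The choice to set replicate 1 apart was also made with earlier results of these data known. Of the 3 ezrinT567A-GFP arrays, replicate 2 was highest in spike-ins and 18S rRNA, and replicate 1 was lowest in both, near replicate 3. Whether these control signals bear on the margin of replicate 1 was not tested.

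The margin of replicate 1 differed between roles. The median of replicate 1 minus the mean of replicates 2 and 3 was 0.58 in transporters, 0.42 in other amino acid enzymes, 0.40 in serine and one-carbon enzymes, 0.36 in stress factors and 0.22 in cytosolic tRNA synthetases. It was 0.0048 over all genes. The transporter value rests on its dim members: without dim genes, which removes Slc7a11 and Slc7a3, it was 0.24, near that of the synthetases. Cth had the largest margin (1.49), then Slc7a3 (1.39), Trib3 (1.14), Slc7a11 (0.95), Atf5 (0.87) and Slc7a5 (0.58). The smallest margins were those of Sars (0.10), Iars (0.12), Cars (0.13) and Wars (0.14). Differences between roles in this margin were not tested.

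Without replicate 1, replicates 2 and 3 both lay above GFP in 24 of 35 genes, against 38.9% of all genes, and both below it in 3, against 32.3%. The median difference of the 35 genes was then 0.25, and role medians were 0.28 in other amino acid enzymes, 0.27 in tRNA synthetases, 0.25 in stress factors, 0.17 in serine and one-carbon enzymes and 0.05 in transporters. With all 3 arrays these were 0.52, 0.37, 0.37, 0.32 and 0.37. The 10 higher genes at an unadjusted p under 0.05 (7.43% of all genes) were then Psph, Gpt2, Slc3a2, Atf5, Aars, Cars, Lars, Mars, Nars and Wars, and Slc7a3 was the lower one (5.7% of all genes). With limma 0 passed adjusted over all genes. Among these genes Wars was higher by 0.91, Atf5 by 0.89 and Aars by 0.77, so these differences did not rest on replicate 1 alone. With all 3 arrays they were 0.96, 1.18 and 0.85, so the place of Atf5 as the largest difference did rest on replicate 1. In contrast Cth (0.04), Slc7a11 (0.05), Atf3 (0.03), Psat1 (0.01), Gars (0.01), Cebpb (-0.00018) and Trib3 (-0.07) had means of replicates 2 and 3 within 0.1 of GFP, as did Eprs (-0.07).

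**Figure D3:**
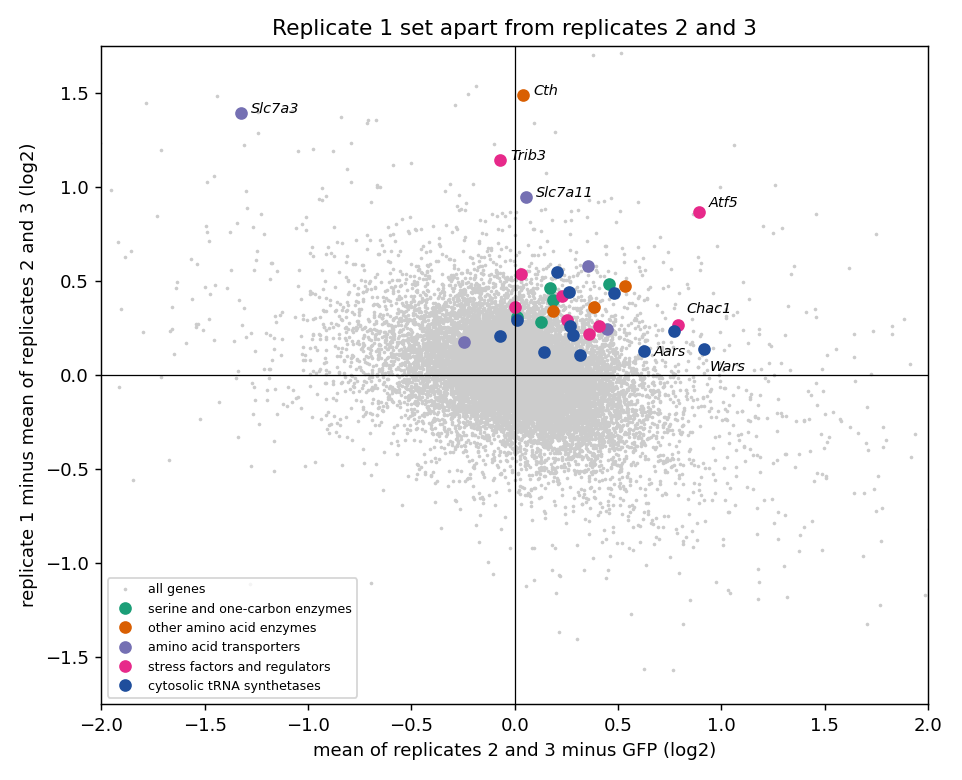
Each point is 1 gene, with the mean of replicates 2 and 3 minus GFP on the horizontal axis and replicate 1 minus that mean on the vertical axis (log2), the 35 genes coloured by role over all genes in grey; 54 genes lie outside the axes. The coloured points lie above the horizontal line; Cth, Trib3 and Slc7a11 lie high and near the vertical line, Wars, Aars and Chac1 to the right, and Atf5 high and to the right. The axes share the mean of replicates 2 and 3, so the slope of the grey cloud is no result.

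The same fit was read for other genes of the pathway, 102 measured of 112 listed. With limma 0 of the 102 passed adjusted over all genes (0.0% of all genes passed). An unadjusted p under 0.05 was found for 9 higher and 13 lower genes. The shares were 7.46% and 6.5% of all genes, and 11.3% and 8.77% of genes at or above the median level. The number of higher genes was near these shares. The median difference over these genes was 0.11. Further genes known to respond to ATF4 came closest to the 35: 16 of 17 had a mean above GFP, 12 on every array (56.1% and 32.5% of all genes). Their median was 0.34. Their array medians were 0.33, 0.27 and 0.27 in replicates 1, 2 and 3. Replicate 1 was the highest in 9 of the 17, and its median margin over the mean of replicates 2 and 3 was 0.16. The margin was wide in Stbd1 (1.7), Fgf21 (0.85) and Stc2 (0.67), and ran the other way in Klhl24 (-0.84). Map1lc3b, a core autophagy protein, was higher by 0.67 (SE 0.11), the autophagy receptor Sqstm1 by 0.69 (SE 0.16, second probe set -0.24), Niban1 by 0.49 (SE 0.16), and Cebpg, a C/EBP dimer partner of ATF4, by 0.34 (SE 0.11).

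The 7 remaining cytosolic tRNA synthetases measured had a median of 0.12, with 5 above GFP on all arrays and 1 below (32.5% and 25.6% of all genes). Kars, for lysine, was higher by 0.42 (SE 0.16), Rars, for arginine, by 0.25 (SE 0.15), and Farsa, a phenylalanine synthetase subunit, by 0.18 (SE 0.11). The 4 probe sets of Farsa ran from -0.25 to 0.18, with 2 above GFP. Its partner subunit Farsb was lower by -0.74 (SE 0.20, adjusted p = 0.285), with 4 probe sets from -0.74 to -0.08. The promoter core was in 0 of the 5 of these genes with a window. The scaffold proteins of the synthetase complex were not higher: Eef1e1 was at -0.30 (SE 0.09), Aimp2 at -0.32 (SE 0.15) and Aimp1 at -0.02 (SE 0.26). The 16 mitochondrial synthetases had a median of 0.12, with 7 above GFP on all arrays and 3 below, against the same shares of all genes. Iars2 was at -0.82 (SE 0.12, adjusted p = 0.2), Nars2 at -0.48 (SE 0.17), Hars2 at 0.63 (SE 0.14) and Sars2 at 0.24 (SE 0.13). The second probe set gave -0.52 in Iars2, 0.07 in Nars2 and 0.04 in Hars2. Of the mitochondrial synthetases 0 of 14 with a window held the core.

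Amino acid enzymes and transporters beyond the 35 genes were also mostly above GFP. Over all genes, 56.1% had a mean above GFP and 32.5% lay above it on every array. Of 11 further amino acid enzymes 9 had a mean above GFP (median 0.23), among them Got2 (0.32, SE 0.09), which makes aspartate, Bcat2 (0.37, SE 0.12) and Bcat1 (0.28, SE 0.17), which transaminate branched-chain amino acids. The 4 probe sets of Got2 ran from -0.12 to 0.32, with 3 above GFP, and the 3 of Bcat1 from 0.0014 to 0.50. Bcat2 was dim, at a mean level of 4.72. Glul, glutamine synthetase, was lower on all arrays, by -1.33 (SE 0.22, adjusted p = 0.214). Of 10 further transporters 8 had a mean above GFP, 5 of them on every array (median 0.22, and 0.16 without replicate 1). Those with the smallest p were Slc38a7 (0.55, SE 0.13), Slc1a4 (0.42, SE 0.18), Slc36a1 (0.24, SE 0.12) and the glycine transporter Slc6a9 (0.63, SE 0.41). Slc6a9 was 6.87 in GFP and 8.07, 7.30 and 7.15, with replicate 1 apart. Slc43a1 was higher by 0.59 (SE 0.42), mostly in replicate 2. Of the 9 further one-carbon and folate enzymes 5 had a mean above GFP, near the share of all genes, and the median was 0.02. Mthfd2l was at 0.34 (SE 0.15), Aldh1l1 at 0.25 (SE 0.18), Gldc at -0.30 (SE 0.21) and Shmt1 at -0.17 (SE 0.14). Of the 4 probe sets of Mthfd2l, from -0.68 to 0.34, 1 lay above GFP. Those of Aldh1l1, which was dim, ran from -0.24 to 0.25, and those of Shmt1 from -0.30 to 0.01.

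Upstream of ATF4, the 13 measured genes for eIF2 kinases, phosphatase regulators and eIF2 and eIF2B subunits had a median of 0.15. The kinase genes were Eif2ak1 (HRI) at -0.31 (SE 0.13), Eif2ak3 (PERK) at -0.29 (SE 0.19), Eif2ak4 (GCN2) at 0.22 (SE 0.18) and Eif2ak2 (PKR) at 0.07 (SE 0.30). Their probe sets ran from -0.35 to 0.05, -0.29 to 0.10, 0.12 to 0.22 and 0.07 to 0.48, in the same order. Of these 4, 0 had an unadjusted p under 0.05 with limma (7.46% of all genes higher and 6.5% lower). Ppp1r15a (GADD34), the stress-induced phosphatase subunit, was 6.67 in GFP and 7.44, 6.91 and 6.97, while its constitutive relative Ppp1r15b was at -0.48 (SE 0.17). Eif2s3x, the gamma subunit of eIF2, was at -1.24 (SE 0.23, adjusted p = 0.231) and Eif2b2 at 0.45 (SE 0.12). The ER chaperone list lay on the other side. It also holds genes that are not chaperones, such as Xbp1 (-0.26) and Edem1 (-0.40), both below GFP on all arrays. Of the 16 genes in this list, 11 were below GFP on all arrays and 0 above (25.6% and 32.5% of all genes). The median was -0.33, at -0.25, -0.47 and -0.24 by array. Among the genes of this list with the smallest p were the cochaperone Dnajc3 (-1.01, SE 0.26), the secreted Manf (-0.54, SE 0.13) and the isomerases Pdia4 (-0.70, SE 0.20) and Pdia3 (-0.45, SE 0.09). Hspa5 (BiP) was at -0.04 (SE 0.14).

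**Figure D4:**
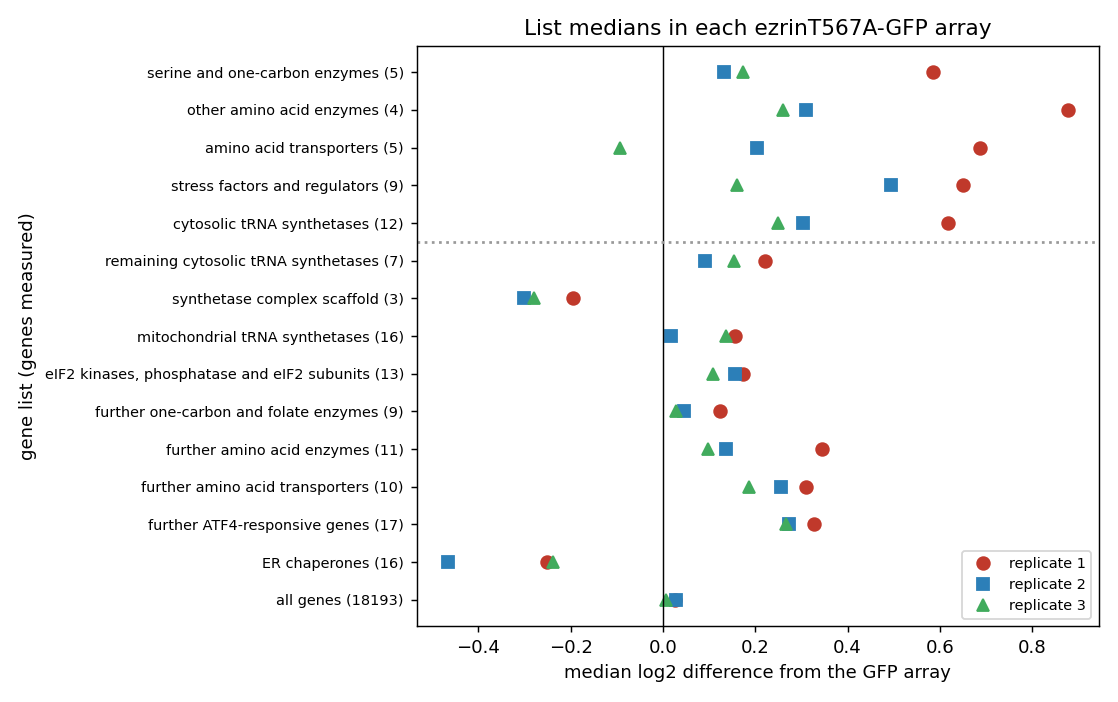
Median log2 difference from GFP of each gene list in the 3 ezrinT567A-GFP arrays, with the number of genes measured in brackets; the 5 lists above the dotted line hold the 35 genes. Replicate 1 lies furthest to the right in these 5 lists (0.58 to 0.88), although in stress factors replicate 2 (0.49) lies nearer to it than to replicate 3 (0.16). It lies closer to the other arrays in further ATF4-responsive genes (0.33), and the ER chaperone list lies left of 0.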

How the data were processed

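Total RNA of K7M2 cells was labelled as biotinylated cRNA for one-colour arrays, per the labels' protocols. The authors deposited log2 values per probe set, made with RMA per the submitters' processing notes (no version stated). Since RMA equalises the arrays' distributions, a change in total RNA would not show. GEO's platform annotation named the probe sets: of 45101, 34958 had 1 gene symbol, 932 several and 9211 none listed. Those with 1 symbol, without controls, gave 18193 genes, and symbols were checked through gene IDs against GRCm38.p6 (34741 of 34945 matched, 0 changed). Each gene was represented by its brightest probe set.

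Groups came from the over-expression label. The fit used limma 3.58.1 under R 4.3.3 (lmFit, eBayes with trend, 2 residual degrees of freedom, two-sided, Benjamini-Hochberg over all genes, threshold 0.05), after testing the script on simulated data. SE is the moderated standard error. A single promoter window is not reported here and stays out of the search counts. Lists are described by counts and medians, without a set test. Python 3.11.15 and matplotlib 3.10.9 drew the figures. Alternatives were quantile normalization, centring, the mean of probe sets, _at probe sets alone, no dim genes, other priors and leaving out each replicate.

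The members and lists, and the choice to set replicate 1 apart, were made with earlier results of these data known. Values by array are given for up to 4 genes per role with the smallest p and 6 with the widest margin of replicate 1; of each pathway list up to 4 genes with the smallest p are named. Atf4, Ddit3, the eIF2 kinases, Ppp1r15a, Hspa5, Slc43a1, the array values of Slc6a9, the margins of Stbd1, Fgf21, Stc2 and Klhl24, and the marker genes with values were added after their values were seen.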

Additional observations from a re-analysis of the deposited data

How the results depend on the processing

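Of the 35 genes, 0 passed limma's test over all genes in the analysis reported and under each alternative run. The number of all genes called was 0 as reported, 34 with quantile normalization, 30 with arrays centred, 6 with the mean of probe sets, 3 without dim genes and 9 with a robust prior; it stayed 0 with _at probe sets alone, without a trend and without each replicate in turn. Of 340 differences of single genes under alternatives, 335 kept their sign. Of these, 35 without a trend, 35 with a robust prior and 32 without dim genes repeat the reported differences, so they could not change sign. The 5 that changed sign were those of Eprs (0.013 after quantile normalization, -0.073 to 0.032 when leaving out 1 replicate), Trib3 (-0.073 to 0.59) and Cebpb (-0.00018 to 0.26), the last 2 without replicate 1. Leaving out 1 replicate moved the role medians between 0.17 and 0.38 in serine and one-carbon enzymes, 0.28 and 0.71 in other amino acid enzymes, 0.05 and 0.57 in transporters, 0.25 and 0.58 in stress factors, and 0.27 and 0.45 in tRNA synthetases, the lowest each time without replicate 1. The transporter median was also 0.09 with _at probe sets alone, where Slc3a2 drops out, and the transporter margin of replicate 1 fell from 0.58 to 0.24 without dim genes. The serine and one-carbon median of 0.32 was 0.17 with the mean of probe sets and 0.46 with _at probe sets alone. The mean of probe sets also lowered Atf4 to 0.08, Phgdh to 0.03, Psat1 to 0.02, Mthfd2 to 0.17, Ddit3 to 0.24 and Cars to 0.42, and moved Slc7a1 to -0.05 and Eprs to -0.17. With _at probe sets alone Gpt2 was 0.30, Aldh18a1 0.60 and Eprs -0.30. The median of all genes was 0.03 as reported, 0.02 after quantile normalization and 0.01 after centring. No paired analysis was possible because the GFP group holds 1 array with no replicate number. Signal over background per array was not analysed here, and differences of dim genes such as Slc7a3, Slc7a11 and Atf3 are therefore uncertain in size.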
